A study of Mus musculus with 6 samples.

Results

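The smooth muscle contractile apparatus was followed through 10 genes: Acta2, Actg2, Myh11, Myl9, Mylk, Cnn1, Smtn, Lmod1, Tpm1 and Tpm2. They were chosen by function, with earlier results of these data known. Looked up by gene symbol, all 10 were found among the 54532 genes of the deposited table. Expression had been measured in eYFP-positive cells sorted from enzymatically dissociated fetal mouse liver, with 3 libraries at embryonic day 18 (E18) and 3 at embryonic day 16 (E16), lettered A, B and C on each day. Every library came from CD-1 embryos of the genotype Sm22-Cre/ROSA26RYFP, and no treatment or second genotype was compared. The Cre is driven by the promoter of Sm22 (Tagln), a gene of smooth muscle and related mesenchyme, and recombination leaves a permanent eYFP mark, so the sort takes cells that once used the promoter together with their descendants. Whether embryos were pooled, and whether libraries of 1 day had different litters, is not in the labels. The p-values below therefore speak of library-to-library spread alone, some of which may be technical.

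Smooth muscle shortens when calcium-bound calmodulin activates myosin light chain kinase, which phosphorylates the regulatory light chain of myosin and lets myosin pull on actin filaments. Tropomyosin lies along those filaments, calponin and smoothelin bind them, and leiomodin helps to build them. In the liver such genes are known from the vessel walls of the portal tract and, in injured liver, from activated stellate cells and portal myofibroblasts. Acta2 is classed as an early marker of smooth muscle differentiation and Myh11 as a late one. Tpm1 was grouped here with Acta2 and Cnn1 with Myh11.

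The libraries rested on 14587493 to 18281931 reads at E18 and 21130180 to 22626799 reads at E16, recovered from the deposited values. Values are TPM, a level scaled by gene length and by the library's total. Sorted cells were not smooth muscle alone. The summed level of 16 erythroid markers was 12506 to 20859 TPM in the E18 libraries and 6911 to 8724 TPM in the E16 libraries, and that of 17 hepatocyte markers was 419 to 1083 TPM at E18 and 2326 to 9685 TPM at E16. By the test described next, 2 of 15 tested erythroid markers rose and 6 of 17 hepatocyte markers fell. In bulk samples of this kind fewer cells of a type and less RNA per cell cannot be told apart. Genes were tested by limma on log2(TPM + 1), adjusted by Benjamini-Hochberg over 17824 genes with at least 1 TPM in at least 3 of the 6 libraries, and called at adjusted p under 0.05.

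The contractile genes were higher at E18. All 10 members passed the filter, and 8 of them rose: Acta2, Actg2, Myh11, Myl9, Mylk, Smtn, Lmod1 and Tpm2. Lmod1 and Cnn1 were under 1 TPM in every E16 library, so they passed the filter through their E18 values alone. Cnn1 and Tpm1 did not pass the test. Among all genes tested 3.47% were called in either direction, 3.08% higher and 0.387% lower at E18, and 0 members were called lower. The members were not chosen blind to these data, so this contrast is a description. The median log2 fold change was 2.60 over the members and 0.07 over all genes tested. Both are on the log2(TPM + 1) scale, where folds of genes near 1 TPM come out too small. In each of the 10 members every E18 value lay above every E16 value, a pattern held by 18.4% of all genes tested (8.05% had the reverse). For 3 against 3 libraries an exact 2-sided permutation test cannot give p below 0.1, and it gave p = 0.1 for each member. The 8 calls did not outlast the loss of most single libraries: limma called 0 members when A or C was left out of the E16 group, and 0 when A or B was left out of the E18 group. It called 1 (Actg2) with B missing from E16, and 9 with C missing from E18. In each of these 6 fits all 10 members had an unadjusted p under 0.05 and a positive fold. With all libraries 20.9% of all genes had such a p. In the 4 fits without a member called, limma called 0 of all genes tested (2765 to 3438 had an unadjusted p under 0.05), so the counts called in every list below also come to 0 there.

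**Figure D1:**
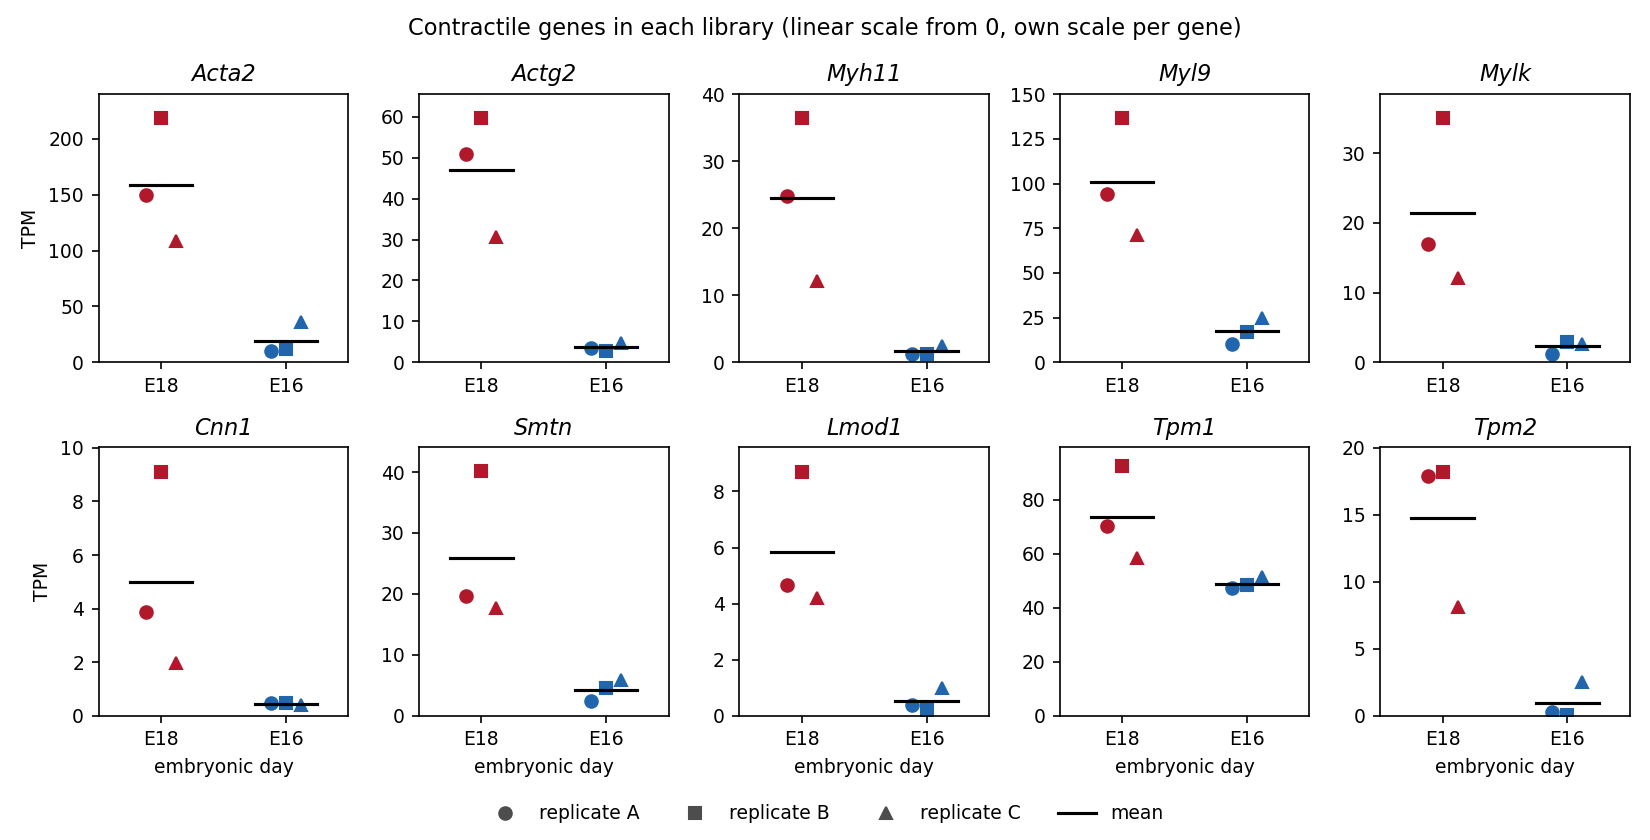
TPM of the 10 contractile genes (vertical axes, linear from 0, scaled per gene) in the E18 libraries (red, left) and the E16 libraries (blue, right). Symbols mark replicates A, B and C and the bar is the mean of 3 libraries. Every E18 value lies above every E16 value, replicate B is the highest and replicate C the lowest E18 library in all 10 genes, and the E16 values of Tpm1 start at 47.2 TPM.

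Serum response factor (SRF), with its smooth muscle co-activator myocardin, binds CArG boxes in many contractile genes, so the sequence before the members' starts was read. RefSeq promoter windows on GRCm38.p6, the assembly of mm10, matched 8 of the 10 members (not Actg2 and Myh11), and the 250 bases before each start were searched for the CArG box, CC and GG around a run of A or T, which reads the same on both strands. An exact box lay in the window of 1 member, Myl9, and in 1.47% of all 32851 windows. With at most 1 mismatch, 4 of the 8 members, Acta2, Myl9, Lmod1 and Tpm1, had a box, against 18.6% of all windows, and each of the 4 had 2 of them, against 2.96% of all windows with 2 or more. Mylk, Cnn1, Smtn and Tpm2 had none in this window. A match is a description and not a site shown to be bound. The stretches below hold the box with 10 bases on each side, with the letters that match the box in capitals and a mismatch within it in lower case. For Myl9 the whole window up to the first annotated exon is given, since it holds the exact box.
Acta2, box starting 84 bases before the start (chr19:34255438-34255467, minus strand): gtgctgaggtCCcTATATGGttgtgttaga
Acta2, box starting 34 bases before the start (chr19:34255388-34255417, minus strand): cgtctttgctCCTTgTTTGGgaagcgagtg
Lmod1, box starting 189 bases before the start (chr1:135324614-135324643, plus strand): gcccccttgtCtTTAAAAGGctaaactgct
Lmod1, box starting 164 bases before the start (chr1:135324639-135324668, plus strand): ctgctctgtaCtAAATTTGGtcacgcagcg
Tpm1, box starting 221 bases before the start (chr9:67049415-67049444, minus strand): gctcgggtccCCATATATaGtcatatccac
Tpm1, box starting 80 bases before the start (chr9:67049274-67049303, minus strand): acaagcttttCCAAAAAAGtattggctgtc
Myl9, boxes starting 161 and 99 bases before the start (chr2:156775214-156775419, plus strand): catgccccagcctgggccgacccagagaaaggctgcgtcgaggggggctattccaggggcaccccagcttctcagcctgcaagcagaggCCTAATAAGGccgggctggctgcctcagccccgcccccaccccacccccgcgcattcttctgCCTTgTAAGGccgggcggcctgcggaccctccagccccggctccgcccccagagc

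Both Acta2 boxes and the nearer Tpm1 box lie inside exons of longer GENCODE transcripts, so their distance depends on the start used.

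Both smooth muscle actins rose. Acta2 (chromosome 19, 34241090 to 34255590, minus strand, mm10), the alpha actin of vascular smooth muscle, had 149.6, 219 and 109 TPM at E18, against 9.87, 11.8 and 35.9 TPM at E16, in the order A, B, C as throughout. Even the lowest E18 library was far above the highest E16 library, and E16 replicate C stood apart from the other E16 libraries. Its log2 fold change was 3.16 ± 0.48 (SE; limma adjusted p = 0.0328), and its window holds a pair of the near-match boxes printed for it. Actg2 (chromosome 6, 83512905 to 83536265, minus strand), the gamma actin of enteric and other visceral smooth muscle, had 50.9, 59.7 and 30.6 TPM at E18, against 3.48, 2.80 and 4.76 TPM at E16. E16 libraries were close together and far under all E18 libraries, and with an adjusted p of 0.0153 in limma it had the smallest p among the members (log2 fold change 3.33 ± 0.30, SE). The ratio of Actg2 to Acta2 within a library was 0.340, 0.273 and 0.282 at E18, against 0.353, 0.239 and 0.133 at E16. These ranges overlapped.

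The motor rose along with the filament. Myh11 (chromosome 16, 14194535 to 14291372, minus strand), the heavy chain of smooth muscle myosin, had 24.8, 36.5 and 12.2 TPM at E18, against 1.27, 1.29 and 2.46 TPM at E16. Its means of 24.5 ± 12.2 and 1.67 ± 0.681 TPM (SD, n = 3 each) at E18 and E16 differ 14.6-fold. The log2 fold change was 3.16 ± 0.42 (SE; limma adjusted p = 0.0299). Myl9 (chromosome 2, 156775420 to 156781658, plus strand), a regulatory light chain of smooth muscle and non-muscle myosin, had 94.0, 137 and 71.3 TPM at E18, against 9.96, 17.0 and 24.9 TPM at E16. Its means differ 5.84-fold, the smallest ratio among the members that rose (log2 fold change 2.51 ± 0.35, SE; limma adjusted p = 0.0314). Mylk (chromosome 16, 34745210 to 35002420, plus strand), the kinase that phosphorylates this light chain, had 17.0, 35.02 and 12.1 TPM at E18, against 1.18, 2.91 and 2.69 TPM at E16. E18 replicate B stood well above the other E18 libraries, and the fold change was 2.69 ± 0.43 on the log2 scale (SE; limma adjusted p = 0.0344). Mylk also encodes shorter products, and gene-level values do not separate them.

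Of the filament-associated proteins, Smtn and Lmod1 rose. Smtn (chromosome 11, 3517523 to 3540612, minus strand), encoding the actin-binding smoothelin of contractile smooth muscle cells, had 19.7, 40.1 and 17.6 TPM at E18, against 2.37, 4.57 and 5.96 TPM at E16. Replicates A and C were close at E18 while replicate B was higher, and the log2 fold change was 2.31 ± 0.40 (SE; limma adjusted p = 0.0364). Exons of genes on the opposite strand lie over 16.3% of the Smtn exon length and 6.85% of that of Mylk, and the strand setting of the counting is not given in the sources used here. The other 8 members had no such overlap. Lmod1 (chromosome 1, 135324807 to 135368065, plus strand), a nucleator of actin filaments, had 4.65, 8.70 and 4.22 TPM at E18, against 0.371, 0.191 and 0.978 TPM at E16. Its E16 values rest on 10, 5 and 25 recovered reads, so their order is coarse, and the log2 fold change was 2.16 ± 0.38 (SE; limma adjusted p = 0.0375). The call was lost at both other pseudocounts, with a fold of 3.42 at 0.1 TPM (limma adjusted p = 0.0510) and 0.96 at 5 TPM (limma adjusted p = 0.0529).

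Cnn1 (chromosome 9, 22099216 to 22109630, plus strand), encoding calponin 1, which binds actin and inhibits the myosin ATPase, was the lowest member on both days by its mean. It had 3.89, 9.12 and 1.98 TPM at E18, against 0.482, 0.495 and 0.395 TPM at E16. In reads these were 47, 114 and 30 at E18 and 9, 9 and 7 at E16. E16 libraries were nearly equal, whereas the E18 libraries spread widely. Its log2 fold change of 1.86 ± 0.47 (SE) missed the threshold (limma adjusted p = 0.0760). Fitted by limma's voom on recovered reads, without the pseudocount of 1 TPM, the same gene had a log2 fold change of 3.04 (adjusted p = 0.0542), and without E18 replicate C it passed (limma adjusted p = 0.0484).

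Of the tropomyosins, Tpm2 rose and Tpm1 did not pass. Tpm2 (chromosome 4, 43514711 to 43523765, minus strand), the beta chain found in smooth and skeletal muscle, had 17.9, 18.2 and 8.15 TPM at E18, against 0.252, 0.0518 and 2.49 TPM at E16. At E16 these values came from 5, 1 and 47 reads, with replicate C far above the others, and the log2 fold change was 3.17 ± 0.54 (SE; limma adjusted p = 0.0364). That fold depends on how low values are treated: it was 1.71 with a pseudocount of 5 TPM, 5.15 with voom on recovered reads and 4.75 with a pseudocount of 0.1 TPM, where the call was lost (limma adjusted p = 0.0618). Tpm1 (chromosome 9, 67022590 to 67049406, minus strand), the alpha chain, made in many splice forms by muscle and non-muscle cells, had 70.3, 92.5 and 58.3 TPM at E18, against 47.2, 48.4 and 51.2 TPM at E16. The lowest E18 and the highest E16 libraries were 58.3 and 51.2 TPM, a narrow gap, and the log2 fold change of 0.56 ± 0.18 (SE) did not pass (limma adjusted p = 0.133). It was already the highest member in every E16 library. Gene-level TPM does not separate its smooth muscle from its non-muscle splice forms.

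The order of the members changed at the top. Tpm1 was the highest member in all 3 E16 libraries, where it held 61.8%, 54.1% and 38.9% of the summed TPM of the 10 members in replicates A, B and C. In all 3 E18 libraries the order at the top was Acta2, Myl9, Tpm1 and Actg2, and Tpm1 held 15.5%, 14.1% and 17.9% of the sum. Acta2 held 33.0%, 33.4% and 33.4% at E18, against 12.9%, 13.1% and 27.3% at E16. Below these, the places of Smtn, Myh11, Mylk and Tpm2 changed from library to library on both days, and Lmod1 and Cnn1 shared the lowest places at E18. The sum over the 10 members was 453, 655 and 325 TPM in the E18 libraries, against 76.5, 89.4 and 132 TPM in the E16 libraries. Of the 10 members, 10 reached 1 TPM in every E18 library and 7 or 8 did so in the E16 libraries. Places and shares compare genes, so they depend on the length in TPM. That length matched all annotated exons merged, 6485 bases for Tpm1 and 2196 for Acta2. In recovered reads, which are not scaled by length, Tpm1 was above Acta2 at E18 too. It had 2011, 2742 and 2088 reads there, against 1450, 2196 and 1317 for Acta2.

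Libraries of the same day differed in a shared way. E18 replicate B was the highest and replicate C the lowest E18 library for 10 of 10 members. Among the E16 libraries, replicate C was the highest for 8 members, the exceptions being Mylk and Cnn1. The summed level of 12 interstitial matrix genes of mesenchyme (collagens I, III, V and VI, Dcn, Lum, Fn1 and Pdgfra) was likewise highest in replicate B and lowest in C at E18 and highest in C at E16, with 3151, 6703 and 2631 TPM at E18, against 511, 665 and 929 TPM at E16, and 11 of the 12 rose. That of 13 stellate and pericyte markers was 233, 522 and 177 TPM at E18, against 33.1, 42.2 and 76.8 TPM at E16, and 8 of the 13 rose. That of 10 portal fibroblast markers was 311, 634 and 259 TPM at E18, against 24.5, 31.8 and 60.5 TPM at E16, and 7 of the 9 tested rose. Their part in the rise of the contractile genes was not tested. Over all genes tested the share called higher was 3.08%.

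Set against that matrix sum, the members fell into 3 patterns. For each 1000 TPM of the matrix list, Myh11 had 7.87, 5.44 and 4.63 TPM at E18, against 2.49, 1.94 and 2.65 TPM at E16, and its ranges did not overlap. Actg2, Mylk, Lmod1 and Tpm2 were also higher relative to the matrix list in every E18 library than in any E16 library. For Mylk and Tpm2 the gap was narrow. Their lowest E18 values were 4.62 and 2.71 TPM per 1000 matrix TPM, against highest E16 values of 4.38 and 2.69. The share of all genes tested with such a pattern on this ratio was not computed. Myl9 had 29.8, 20.4 and 27.1 TPM per 1000 matrix TPM at E18, against 19.5, 25.5 and 26.7 at E16, so its ranges overlapped, as did those of Smtn, Acta2 and Cnn1. Tpm1 went the other way, with 22.3, 13.8 and 22.1 TPM per 1000 matrix TPM at E18, against 92.4, 72.8 and 55.2 at E16. These are descriptions of ratios within libraries, with no test.

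Early and late markers were compared as ratios within each library. The geometric mean of Myh11 and Cnn1 over that of Acta2 and Tpm1 was 0.0958, 0.128 and 0.0618 in the E18 libraries, against 0.0363, 0.0335 and 0.0230 in the E16 libraries. The groups did not overlap, and the mean difference was 1.59 on the log2 scale, or 0.65 with a pseudocount of 1 TPM. How often ratios of other genes separate in this way was not computed. Relative to Acta2, Myh11 was at 0.166, 0.167 and 0.112 at E18, against 0.129, 0.1096 and 0.0685 at E16, and Cnn1 was at 0.0260, 0.0417 and 0.0183 at E18, against 0.0488, 0.0421 and 0.0110 at E16. Both ratios overlapped between the days. Relative to Tpm1, Myh11 was at 0.353, 0.394 and 0.209 at E18, against 0.0269, 0.0266 and 0.0480 at E16. Acta2, grouped with Tpm1 as early, was itself at 2.13, 2.37 and 1.86 times Tpm1 at E18, against 0.209, 0.243 and 0.700 times at E16. Acta2 was thus higher relative to Tpm1 in every E18 library, and its log2 fold change of 3.16 equalled that of the late marker Myh11 at a pseudocount of 1 TPM. That equality depends on the pseudocount: Acta2 and Myh11 had 3.24 and 3.72 at 0.1 TPM, and 2.86 and 2.06 at 5 TPM. Their ratios of means were 8.29 and 14.6.

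**Figure D2:**
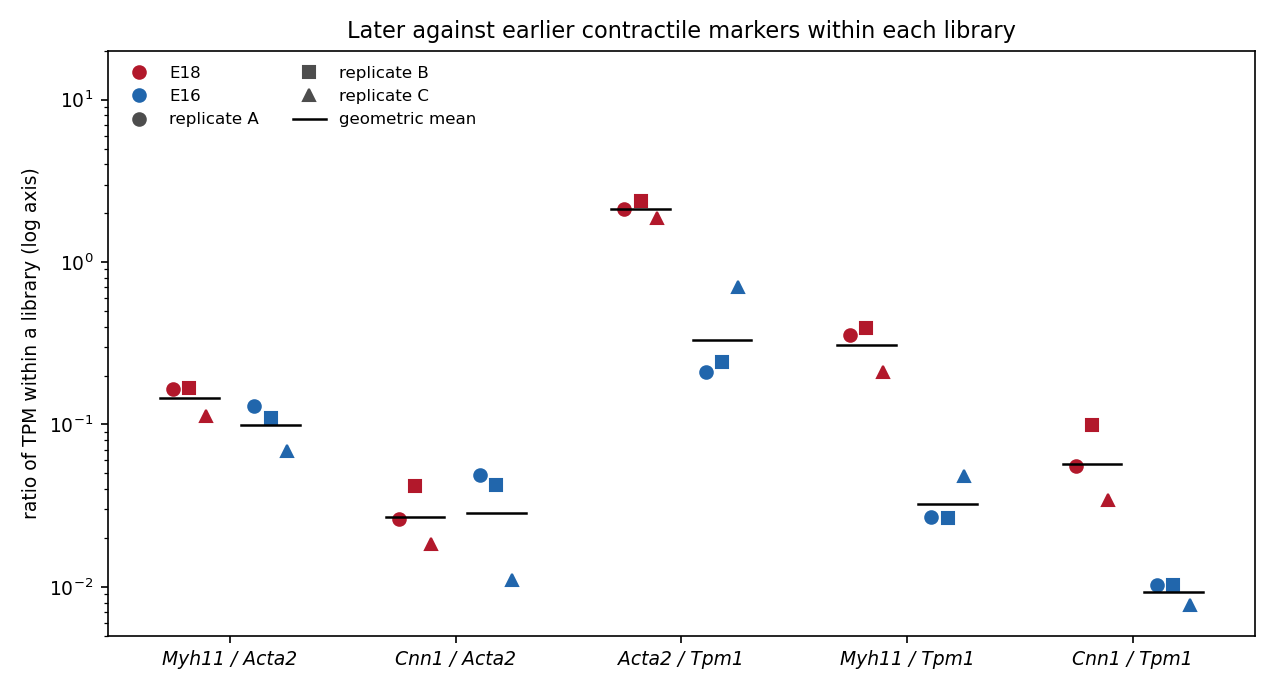
Ratios of TPM between pairs of contractile genes within each library (log axis), with E18 in red on the left of each pair and E16 in blue on the right. Symbols mark replicates and bars are geometric means of 3 libraries. Ratios to Acta2 overlap between the days, with Myh11 over Acta2 at 0.112 to 0.167 at E18 and 0.0685 to 0.129 at E16, while all ratios to Tpm1 are higher in every E18 library.

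Each contractile protein has relatives made outside smooth muscle. Of 20 listed paralogues 14 were tested, 2 rose and 0 fell, and 3.08% of all genes tested were called higher. Their median log2 fold change was 0.42, against 2.60 over the members and 0.07 over all genes tested. Actb, Myh9, Myl12b, Cnn2, Tpm4, Tmod1, Tmod3, Smtnl2 and Mylk3 had every E18 value above every E16 value. That pattern was held by 18.4% of all genes tested. Cytoplasmic beta actin (Actb) had 1697, 1968 and 1724 TPM at E18, against 1019, 1630 and 1568 TPM at E16, and did not pass (limma adjusted p = 0.504). Its sister Actg1 had 191, 212 and 189 TPM at E18, against 218, 252 and 321 TPM at E16, lower in every E18 library but short of the threshold (limma adjusted p = 0.236). Of the non-muscle myosin heavy chains, neither passed in limma: Myh9 had 98.3 ± 12.1 TPM at E18 and 79.8 ± 6.37 TPM at E16 (adjusted p = 0.282), and Myh10 had 126 ± 14.6 TPM at E18 and 115 ± 6.49 TPM at E16 (adjusted p = 0.689; SD, n = 3 each). Of the paralogues that rose, Tpm4, a non-muscle tropomyosin, had 39.5, 71.0 and 35.6 TPM at E18, against 12.8, 16.7 and 14.5 TPM at E16 (log2 fold change 1.60 ± 0.27, SE; limma adjusted p = 0.0358). Mylk3, described as the myosin light chain kinase of heart muscle, had 79.4, 83.9 and 69.7 TPM at E18, against 34.5, 48.8 and 33.9 TPM at E16 (0.99 ± 0.17, SE; limma adjusted p = 0.0375). By TPM, Mylk3 was thus the more abundant kinase gene of its family in all 6 libraries, above Mylk even at E18. Cnn2, the calponin of non-muscle cells, had 51.9, 80.5 and 35.2 TPM at E18, against 6.43, 18.5 and 16.0 TPM at E16, and did not pass (limma adjusted p = 0.0533).

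**Figure D3:**
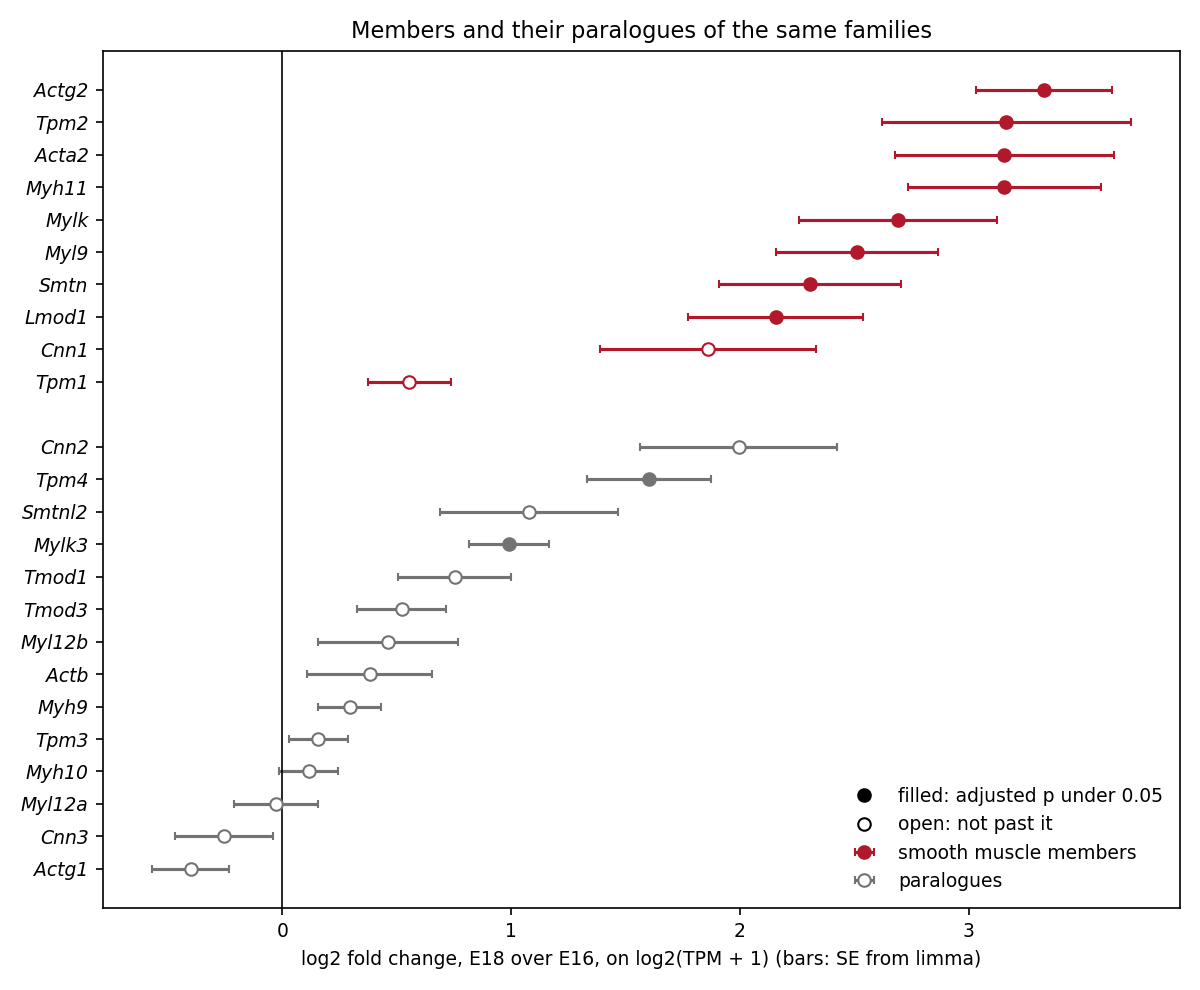
Log2 fold change of E18 over E16 on the log2(TPM + 1) scale, with limma standard errors, for the 10 contractile members (red) and the 14 tested paralogues of the same families (grey). Filled points passed adjusted p under 0.05. Members span 0.56 (Tpm1) to 3.33 (Actg2) and the paralogues −0.40 (Actg1) to 1.995 (Cnn2).

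Because TPM is scaled by length, a family's total could be split between the members and their paralogues. The percentages of this split depend on the length used, that of all annotated exons merged. This split does not separate smooth muscle from non-muscle expression, since Myl9 and Tpm1 are also made by non-muscle cells. Acta2 and Actg2 held 9.60%, 11.3% and 6.78% of the TPM of 4 actin genes at E18, against 1.07%, 0.767% and 2.11% at E16, so cytoplasmic actins dominated on both days. Myh11 held 10.8%, 12.5% and 5.40% of the TPM of 3 myosin heavy chain genes at E18, against 0.696%, 0.649% and 1.17% at E16. Both shares were higher in every E18 library. How often shares in other gene families separate in this way was not computed. Myl9 held 84.9%, 90.7% and 84.6% of its family at E18 and already 42.8%, 53.1% and 64.6% at E16. The rest of that family was low, with Myl12a at 11.6 to 14.2 TPM and Myl12b at 1.03 to 2.54 TPM. Paralogues were not checked for stretches shared with other genes, which could affect these shares. Mylk held 17.6%, 29.0% and 14.8% of the kinase family at E18, against 3.31%, 5.64% and 7.35% at E16. Cnn1 held 4.36%, 7.10% and 2.64% of the calponins at E18, against 1.25%, 0.672% and 0.607% at E16. The tropomyosin shares overlapped: Tpm1 and Tpm2 together held 48.7%, 47.7% and 42.5% at E18, against 46.5%, 41.7% and 45.8% at E16. Within that pair, Tpm2 over Tpm1 was 0.255, 0.197 and 0.140 at E18, against 0.00533, 0.00107 and 0.0487 at E16, without overlap.

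**Figure D4:**
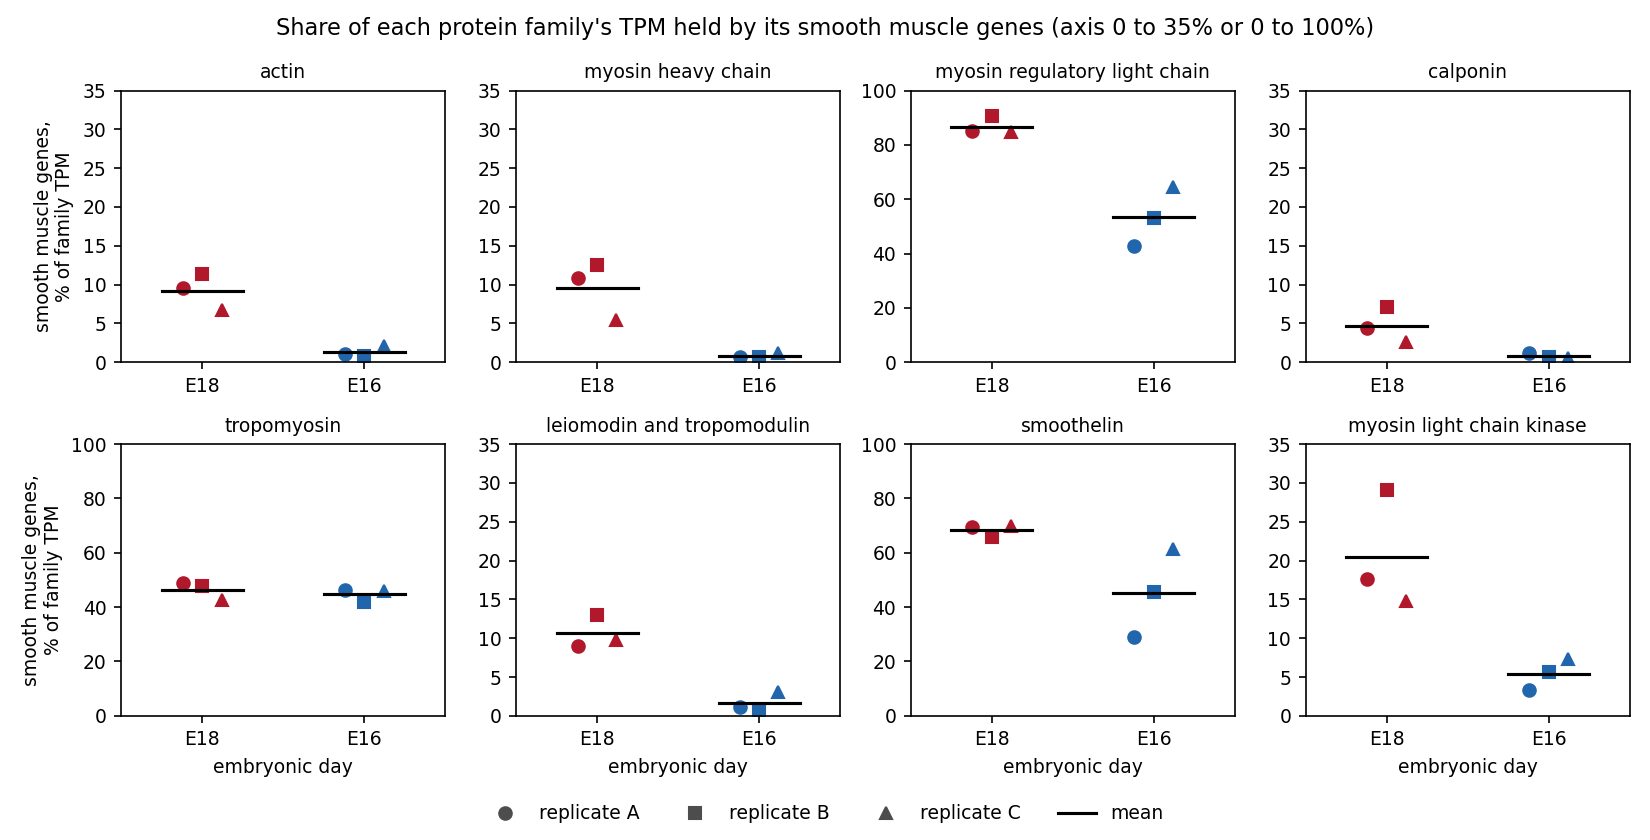
Share of each family's summed TPM held by the members, labelled smooth muscle genes on the axes, in percent. Axes run from 0 to 35% or from 0 to 100%. E18 libraries are red on the left, E16 libraries are blue on the right, and the bar is the mean of 3 libraries. The share is higher in every E18 library in 7 of the 8 families, and the tropomyosins, at 42.5% to 48.7% and 41.7% to 46.5%, overlap. Shares in other gene families were not computed, so this count has no background.

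Genes of the adhesion sites and control circuits around the filaments were read from lists chosen by function, also with earlier results of these data known. Of 23 tested genes of focal adhesions and dense plaques, where filaments meet the membrane, 8 rose and 0 fell, with a median log2 fold change of 1.38. The share called higher over all genes tested was 3.08%. Itga8, an integrin alpha chain of smooth muscle and stellate cells, had 21.7, 48.0 and 16.5 TPM at E18, against 1.37, 1.29 and 3.35 TPM at E16 (3.23 ± 0.45, SE; limma adjusted p = 0.0314). The actin cross-linker filamin A (Flna) had 179, 317 and 153 TPM at E18, against 65.2, 74.8 and 90.6 TPM at E16 (limma adjusted p = 0.0444). Fhl1, Fhl2, Lpp, Palld, Parva and Pdlim3 rose by 2.05 to 2.45 on the log2 scale. Their E18 values were highest in replicate B, like those of the members. Pdlim3 was under 1 TPM in every E16 library, so it passed the filter through its E18 values alone.

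Of 19 tested genes of contraction signalling 3 rose and 0 fell, beside 3.08% of all genes called higher, and the median log2 fold change was 0.30. Ppp1r14a, which encodes CPI-17, an inhibitor of myosin phosphatase, had 3.65, 8.48 and 4.24 TPM at E18, against 0.107, 0 and 0.113 TPM at E16, the last from 1, 0 and 1 reads (2.52 ± 0.37, SE; limma adjusted p = 0.0314). Cacna1c, the pore subunit of the L-type calcium channel that admits calcium for contraction, had 10.1, 12.3 and 8.26 TPM at E18, against 1.997, 1.73 and 2.25 TPM at E16 (1.90 ± 0.27, SE; limma adjusted p = 0.0314). Myl6, the essential light chain shared by smooth muscle and non-muscle myosin, had 111, 125 and 106 TPM at E18, against 74.2, 74.6 and 74.4 TPM at E16 (0.60 ± 0.12, SE; limma adjusted p = 0.0433). Its E16 libraries were almost identical and well under all E18 libraries. Ppp1r14a, under 1 TPM in every E16 library, passed the filter through its E18 values alone. Pde5a, a cyclic GMP phosphodiesterase of vascular smooth muscle, had 6.89, 11.6 and 5.49 TPM at E18, against 0.641, 2.40 and 1.12 TPM at E16, just short of the threshold (limma adjusted p = 0.0513).

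In the list of SRF and myocardin control with the SM22 axis, 4 of 13 tested genes rose and 0 fell, beside 3.08% of all genes called higher. Its median log2 fold change was 1.498. This list also holds intermediate filament and mesenchyme genes, and of the 4 that rose only Myocd encodes SRF or a co-activator of it. Myocd, encoding myocardin, had 4.97, 6.06 and 2.23 TPM at E18, against 0.114, 0.281 and 0.216 TPM at E16 (2.097 ± 0.38, SE; limma adjusted p = 0.0390). Myocd was under 1 TPM in every E16 library, so it passed the filter through its E18 values alone. The intermediate filament genes Des and Vim rose by 2.94 ± 0.61 and 2.66 ± 0.41, and the visceral mesenchyme factor Tcf21 by 2.99 ± 0.53 (log2 ± SE). Srf, named after its values were seen, had 44.8, 41.7 and 38.6 TPM at E18, against 47.2, 52.4 and 62.7 TPM at E16. It was lower in every E18 library, like 8.05% of all genes tested, but short of the threshold (limma adjusted p = 0.224). Mrtfa and Mrtfb, also named after their values were seen, were higher in every E18 library, like 18.4% of all genes tested, but did not pass. Their log2 fold changes were 0.61 (limma adjusted p = 0.213) and 0.45 (limma adjusted p = 0.355). Tagln, which drove the Cre, had 3.19, 2.86 and 3.37 TPM at E18, against 1.40, 0.606 and 1.17 TPM at E16, and did not pass (limma adjusted p = 0.111). Exons of opposite-strand genes cover 67.9% of its exon length.

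Few stretches of the members recur in other genes. Of all 50-base windows in a member's transcripts, 0% were shared with another gene for Actg2, Myl9, Cnn1, Lmod1, Tpm1 and Tpm2, 0.326% for Acta2 and 0.340% for Myh11. The share was 4.56% for Mylk and 9.46% for Smtn, with the overlapping opposite-strand genes among the partners. Read length is not given in the sources used here, so the window is a choice.

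Other cell types that use the same genes were looked for by their own markers. Of 23 heart and skeletal muscle genes 4 passed the filter and 0 were called by limma (adjusted p of the 4 from 0.0751 to 0.0871), 11 stayed under 1 TPM in every library, and the summed level was 22.9, 32.3 and 8.61 TPM at E18, against 6.92, 19.4 and 10.7 TPM at E16. The overlap of these sums came with Tnnc1, which had 1.31, 0.841 and 0.869 TPM at E18, against 2.95, 13.7 and 5.34 TPM at E16. Without it the other 22 genes summed to 21.6, 31.4 and 7.74 TPM at E18, against 3.97, 5.70 and 5.37 TPM at E16, higher in every E18 library and highest in replicate B at E18 like the members. Troponin T gene Tnnt2 had 2.60, 6.10 and 1.24 TPM at E18, against 0.0189, 0.252 and 0 TPM at E16, and Tnnt3 had 2.15, 5.39 and 1.60 TPM at E18, against 0, 0 and 0.488 TPM at E16. Cardiac Myh6 reached at most 0.808 TPM and Myl2 at most 0.673 TPM, and Tnnc2 was at 0 in all 6 libraries. Other genes under the filter went higher. Myog, Actc1, Myl7, Myl4, Tnnt1, Nppa, Ckm and Myod1 had 1.06 to 2.58 TPM in their highest library. Skeletal actin Acta1, with 4.28, 9.40 and 2.47 TPM at E18, against 0.572, 1.08 and 0.704 TPM at E16, was highest in replicate B and lowest in C at E18 like the members, and did not pass (limma adjusted p = 0.0825). Megakaryocytes also make Myl9 and Tpm1. Their 13 markers, of which Gp1bb was at 0 in every library, summed to 130, 103 and 204 TPM at E18, against 60.6, 143 and 89.9 TPM at E16, and 0 of 10 tested were called by limma. At E18 the sum was highest in replicate C, and the ranges of the days overlapped. Fold changes were positive for 10 and negative for 0 of the tested markers. The 10 mesothelial markers summed to 222, 265 and 288 TPM at E18, against 198, 214 and 234 TPM at E16, overlapping. Podxl alone reached 186 TPM in its highest library. Of the 10, 4 rose (Krt19, Lrrn4, Msln and Upk3b), while 3.08% of all genes tested were called higher. The median log2 fold change of the list was 1.39, with 7 positive and 3 negative folds. The 10 endothelial markers summed to 18.5 to 27.4 TPM at E18 and 27.7 to 41.3 TPM at E16, but Egfl7 alone, the 1 gene of the list that was tested, made up most of this. Egfl7 had 15.5, 12.5 and 22.5 TPM at E18, against 26.2, 39.2 and 37.6 TPM at E16, and was not called (limma adjusted p = 0.0769). The other 9 endothelial markers summed to 3.04, 8.99 and 4.85 TPM at E18, against 1.49, 2.11 and 2.098 TPM at E16, higher in every E18 library. The 10 macrophage and leukocyte markers summed to 102, 111 and 37.2 TPM at E18, against 57.0, 41.9 and 55.6 TPM at E16, overlapping. Most of that was Cd68, 7 of the 10 were at 0 in all 6 libraries, and neither tested gene, Cd68 (limma adjusted p = 0.549) nor Csf1r (limma adjusted p = 0.315), passed. Whether any of these cell types, or erythroid cells and hepatocytes, had a part in the members' values was not tested.

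Genes outside the 10 were ranked by likeness to the members, as the Pearson correlation over the 6 libraries with the members' mean standardized log2(TPM + 1), among 9533 protein-coding genes whose higher day mean reached 5 TPM. The 8 most alike were Adamts10, Bambi, Col6a2, Col6a3, Angptl2, Mmp2, Adamts1 and Fndc1, with correlations of 0.998 to 0.999. With 6 libraries such values are easily reached and carry no test: 417 genes had the members' rank order exactly. Among the 8 are matrix proteases (Adamts10, Adamts1 and Mmp2) and chains of collagen VI (Col6a2 and Col6a3). Adamts10 had 37.3, 69.7 and 23.5 TPM at E18, against 4.38, 5.44 and 8.27 TPM at E16. Of the members, Myh11 was most like the other 9 (0.995), and Tpm1 (0.941) and Cnn1 (0.950) were least like them. With the day means taken out, the correlations ran from 0.731 (Tpm2) to 0.958 (Myh11), with Tpm1 at 0.911 and Cnn1 at 0.777.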

How the data were processed

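The deposited values are TPM for 54532 genes in 6 libraries, made by the authors from stranded total-RNA libraries. Per the submitters' processing notes the build was mm10, and the tools listed are HTSeq 0.5.4p3, Bowtie, HISAT2 2.1.0 and FastQC 0.11.7. How TPM was calculated, with which annotation and strand setting, is not given in the sources used here. Of the identifiers 54409 had a symbol, and positions and exon lengths came from GENCODE M21. TPM multiplied by merged exon length gave whole reads, within 0.05 of a read, for 96.7% to 97.1% of values above 0. At 1 TPM a gene of 1000 bases rests on 4.41 to 6.83 reads.

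The days were tested with limma (version 3.58.1, R 4.3.3) on log2 of TPM plus a pseudocount of 1, with trended variance, 2-sided. The fit was also run on 5 simulated data sets to check the code. Genes varied independently there, unlike the shared library differences seen here, so error rates in these data were not tested. Members and gene lists were chosen with earlier results of these data known. Genes named are the members, their listed paralogues (in part), called genes and up to 4 of smallest p per pathway list, and the 8 most alike. Alternatives changed pseudocount, filter, scaling, weights, model and libraries. Figures used Matplotlib 3.10.9.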

Additional observations from a re-analysis of the deposited data

How the results depend on the processing

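All 178 member fold changes in 18 alternative fits were positive; 66 lost and 3 gained a call. The members called higher, 8 in the analysis as reported, numbered 6 to 10 in the fits with all 6 libraries, except 0 without a filter on low values and 0 with the replicate block, where limma gave 10 members an unadjusted p under 0.05. Leaving out single libraries gave 0 to 9. Leaving out both libraries lettered B, chosen after seeing the data, gave 0 members and 0 genes (9 members and 2846 genes at unadjusted p under 0.05). Over all genes 618 were called, against 347 with a pseudocount of 5, 406 with a filter at 5 TPM, 399 with quantile normalization, 4316 with array weights, 1469 with voom on recovered reads, 0 without a filter (4571 at unadjusted p under 0.05), 0 with the replicate block (3195) and 0 to 664 with single libraries left out. Fewer samples enter those last fits; for the others the cause was not tested. Quantile normalization moved the median of all genes from 0.07 to −0.08 and the share of higher calls from 88.8% to 78.7%, and array weights moved that share to 64.8% (2795 higher, 1521 lower). The members' median of 2.60 was 3.19 with a pseudocount of 0.1, 1.74 with 5 and 3.20 with voom. The late over early difference of 1.59 was 0.65 with a pseudocount of 1 and 1.34 to 1.87 with single libraries left out. Of the 8 most alike genes 1 was among the 8 by deviations from the day means. Actg2, Cnn1, Lmod1 and Tpm2 rest on under 50 reads in each E16 library, which limits their folds. Deviations from the day means of libraries with the same letter correlated at 0.102 (A), −0.139 (B) and −0.117 (C), and not every library correlated best with its own letter. These values give no evidence of pairing and do not exclude it.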
